A study of Mus musculus with 4 samples.

Results

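The dentate gyrus (DG) of adult mice that had received 11 sessions of electroconvulsive stimulation (ECS), the animal model of electroconvulsive therapy, was compared with the DG of sham-handled mice across all genes on a microarray. The comparison takes 2 arrays, 1 for ECS and 1 for sham, out of 4 in the series, and every probe set whose signal averaged 50 or more across all 4 arrays. That left 13422 of 22626 probe sets other than controls, which carried 7935 of the 12393 genes named on the array. The mice were males, labelled C57Bl/6; the methods name C57BL/6J or C57BL/6N, purchased at 8 weeks of age, without saying which substrain was on the arrays. ECS was a current of 25 mA for 1 s, given as 100 pulses per s of 0.5 ms through ear clips on both sides under isoflurane, 4 times a week for 3 weeks. Sham mice were handled in the same way and received no current. The labels place both arrays 6 h after the last session, whereas the methods place them at 24 h, and the files do not settle which is right. RNA of the mice of a group was pooled before hybridization, so no replicates exist, no spread between animals was measured, and each difference is given by its size alone, without a test. The series description says that the samples were selected for low frequency facilitation (n = 3), a physiological property of the granule cell synapse, and the methods describe this selection for the fluoxetine mice. The other 2 arrays, of mice given water as vehicle and of mice given fluoxetine at 22 mg/kg per day for 28 days, entered the signal filter. The vehicle array served as the other pool without current or drug, and these pools are called untreated below. Sham mice had the handling of the ECS sessions, and vehicle mice were the controls of the fluoxetine mice. The ratio of sham over vehicle therefore also holds this difference in handling. No group carried a genetic change.

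Granule cells (GCs) are the principal neurons of the DG and are among the few neurons that are still born in adult life. Strong synchronous firing, such as a seizure, switches on immediate early genes within minutes, and many of these encode transcription factors that act on a later wave of genes for neuropeptides, growth factors and synaptic proteins. Mature GCs are known for calbindin (Calb1), while newborn GCs carry doublecortin (Dcx) and calretinin (Calb2).

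The 4 arrays had no common scale, with median signals of 76.1 for sham, 71.3 for ECS, 104.2 for vehicle and 114.5 for fluoxetine over the probe sets. The median log2 signal of the retained probe sets was therefore taken off each array, which was 7.89 for sham and 7.78 for ECS, so that each ratio below is raised by the gap between these medians over the quotient of the printed signals. The ratio of the 3′ to the 5′ probe set of Gapdh, a sign of RNA integrity, was 0.758 on the sham array and 0.736 on the ECS array. The 9 hybridization controls differed by a median of 0.01 log2 units after centring, while the 12 poly-A controls, which are added to the RNA before labelling, were lower on the ECS array by a median of -0.43, ranging from -1.02 to 0.39. Of the defining markers of the DG, Prox1, Calb1, Dsp, Tdo2 and Lct were measured in both pools, with summed signals of 7176 in sham and, at the sham median, 3573 in ECS. Calb1 made up 3813.5 of the sham sum, and Prox1 had a centred log2 ratio of -0.08. The defining markers of choroid plexus were dim in both, since transthyretin (Ttr) had a signal of 16.8 in sham and 17.0 in ECS, and Folr1 had 12.9 and 14.7. In bulk tissue, fewer cells of a type and less RNA per cell cannot be told apart.

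After ECS, 424 of 7935 genes (5.34%) had a signal at least 1.5-fold that of sham and 332 (4.18%) had a sham signal at least 1.5-fold that of ECS. These are the genes called higher and lower from here on, and together they are 9.53% of all genes. The counts of gene lists below are to be read beside these shares. The signal filter took in the ECS and fluoxetine arrays, so a gene dim in both untreated pools could pass it by being raised. A dim gene without a rise was left out of the counts. By probe set, the counts were 713 (5.31%) and 559 (4.16%). Between sham and vehicle, the untreated pools, which also differed in handling, 254 genes (3.2%) differed as much in either direction, of which 158 were above and 96 below vehicle. The large differences were mostly increases, since at least 2-fold there were 138 higher and 83 lower genes, at least 4-fold 36 and 7, and at least 8-fold 12 and 1. Between sham and vehicle, 23 and 14 genes reached 2-fold, and 0 reached 8-fold. With the signals as deposited, without centring, the split turned to 305 higher and 513 lower genes.

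**Figure D1:**
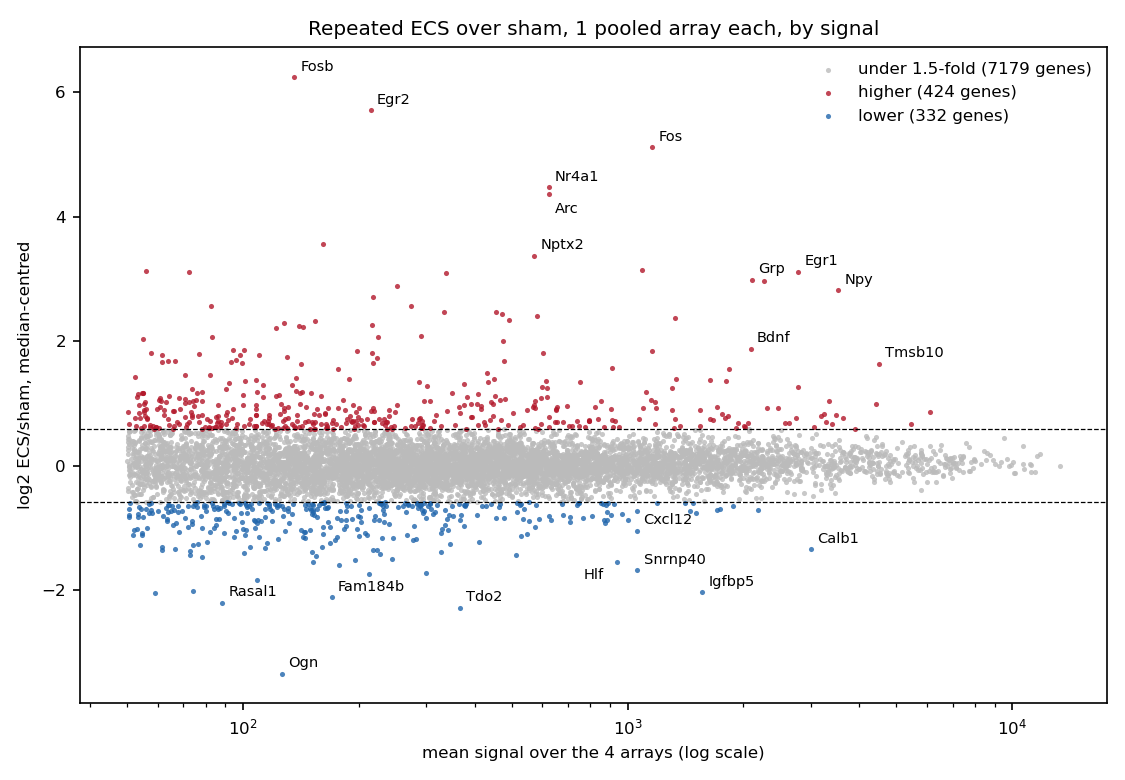
Each point is a gene, with its mean signal over the 4 arrays on a log axis and its centred log2 ratio of ECS to sham on the vertical axis, and dashed lines mark 1.5-fold. The 424 genes higher with ECS reach a log2 ratio of 6.24, while the 332 lower genes reach -3.34.

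The signal of a gene bore on how often it passed 1.5-fold. Among genes with a mean signal of 50 to 100, 9.93% were higher and 7.94% lower, and 12.3% passed 1.5-fold between sham and vehicle. Among genes at 500 to 1000, 3.47% were higher and 2.62% lower against 0.212% between the untreated pools. Among the 633 genes at 2000 or more, 27 were higher (4.27%) and 2 lower (0.316%), and 0.632% differed between sham and vehicle. The width of the ratios, as the scaled median absolute deviation, was 0.39 log2 units for ECS over sham and 0.34 for sham over vehicle in the dimmest class, and 0.19 and 0.13 in the brightest. The classes rest on the mean over all 4 arrays, ECS and fluoxetine included. A raised gene could thus enter a brighter class and a lowered gene leave it. Grp, with 373.8 in sham, had a mean of 2106.8, and Igfbp5, with 2143.3 in sham, had 1563.4. With classes set in this way, the excess of increases over decreases was widest among the bright genes, and part of it comes from the classes. Dim genes also differed often between the untreated pools.

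**Figure D2:**
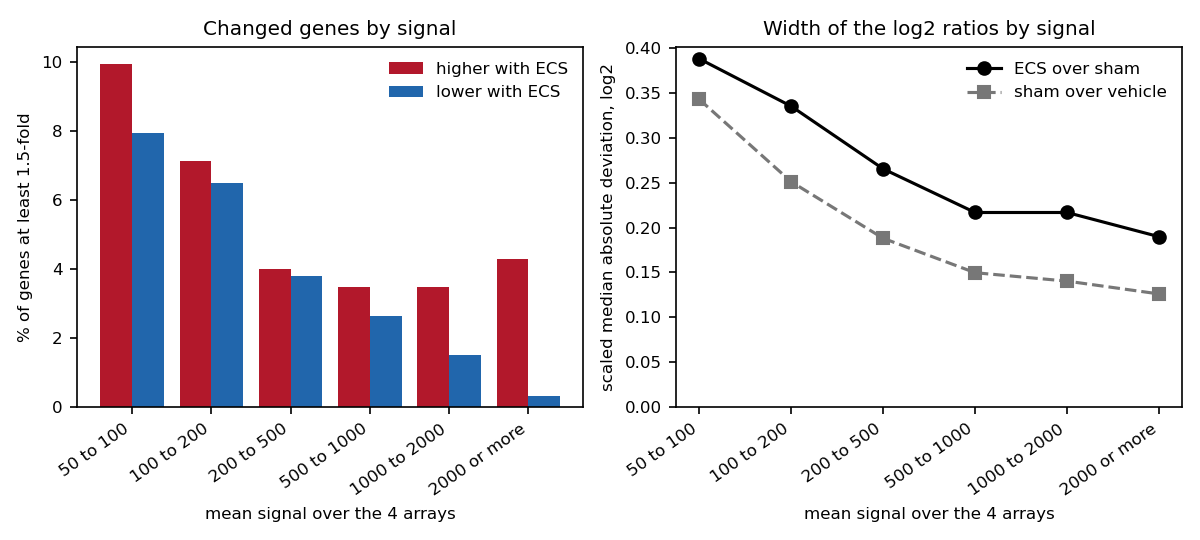
The left panel gives the percentage of genes at least 1.5-fold higher (red bars) or lower (blue bars) with ECS in 6 classes of mean signal, and the right panel gives the width of the log2 ratios as the scaled median absolute deviation for ECS over sham and for sham over vehicle. Lower genes make up 7.94% of the dimmest class and 0.316% of the brightest, while that of higher genes is 4.27% in the brightest.

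The highest ratios belonged to inducible transcription factors, of which 17 of 30 measured were higher and 0 lower, with a median log2 ratio of 1.13 beside 0.01 over all genes. Fos, a subunit of the AP-1 dimer and the standard marker of recent neuronal firing, had a signal of 118.4 in sham and 3808.8 in ECS, a centred log2 ratio of 5.12 or 34.7-fold. Its signal on the vehicle array was 197.5, and sham differed from vehicle by -0.24 after centring. Nr4a1, an orphan nuclear receptor, had signals of 95.5 and 1962.9 (log2 ratio 4.47), and its relative Nr4a2 had 130.2 and 666.1 (2.46). The sham and vehicle pools lay close together and the ECS pool stood apart from both for these genes. Among zinc finger factors, Egr1 went from 714.6 to 5750.8 (3.12) and Egr2 from 15 to 725.4 (5.70). Fosb had the largest ratio past the filter, from 5.4 to 379.8 (6.24). The sham signals of Egr2 and Fosb were near the lowest the array gives, and with signals below 50 set to 50 their log2 ratios were 4.22 and 3.29. Junb, an AP-1 partner, had 91.2 and 623.0 (2.88), and Btg2, an antiproliferative regulator of transcription and mRNA decay, had 270.9 and 1326.9 (2.40). Batf3 had 12.3 in sham and 134.2 in ECS, and here the untreated pools also disagreed, since vehicle gave 74.2. In all, 5 of the 30 genes passed 1.5-fold between sham and vehicle, among them Fosb at -1.92 and Atf3 at 1.89.

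Not every inducible factor was high. Jun, the most common partner of Fos, had 1738.1 in sham and 1249.9 in ECS (-0.37), and Srf, which drives the early response through the CArG box, had 366.8 and 361.3 (0.09). Egr3 had 50.7 and 55.2 (0.23). Bhlhe40, a repressor that also acts in the clock, was just inside 1.5-fold at -0.58. Members of the Fos and Jun group and of the Egr group thus differed among themselves.

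Promoters of early response genes are known for the cAMP response element (CRE), the site of the factor CREB. Windows of 300 bases, from 250 before to 50 after the RefSeq transcription start on GRCm38.p6, were found for 6478 of the 7935 genes and were searched on both strands, a gene being counted when any of its windows held the letters. The TGACG core of this element occurred in the windows of 11 of the 15 genes with a window among the 20 largest increases and in 3 of 15 among the 20 largest decreases, beside 37.6% of all genes measured and 20.8% of all windows in the table. Windows of genes at the extremes are printed because they hold the full CRE or several cores. Capitals mark the CRE TGACGTCA, its core TGACG or the reverse complement, and in Dusp1 also the E-box CACGTG. The full CRE contains a core on each strand. Fos lies at chr12:85473640-85473939 on the plus strand, Nr4a1 at chr15:101266596-101266895 on the plus strand, Btg2 at chr1:134079106-134079405 on the minus strand, Dusp1 at chr17:26508423-26508722 on the minus strand, and Hlf, the lowered gene with a full CRE, at chr11:90390868-90391167 on the minus strand.
Fos: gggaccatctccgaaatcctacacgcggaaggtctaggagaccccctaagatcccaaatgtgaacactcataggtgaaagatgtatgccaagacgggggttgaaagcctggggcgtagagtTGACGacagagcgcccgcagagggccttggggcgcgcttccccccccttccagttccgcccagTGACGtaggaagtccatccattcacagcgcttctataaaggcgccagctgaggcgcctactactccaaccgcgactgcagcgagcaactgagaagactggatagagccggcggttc
Nr4a1: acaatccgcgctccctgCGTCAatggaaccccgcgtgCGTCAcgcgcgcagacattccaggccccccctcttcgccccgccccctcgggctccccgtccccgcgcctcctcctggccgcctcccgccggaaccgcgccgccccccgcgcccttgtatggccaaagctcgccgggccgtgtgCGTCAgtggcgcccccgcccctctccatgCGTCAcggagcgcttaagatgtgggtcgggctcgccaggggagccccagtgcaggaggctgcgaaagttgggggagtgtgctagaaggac
Btg2: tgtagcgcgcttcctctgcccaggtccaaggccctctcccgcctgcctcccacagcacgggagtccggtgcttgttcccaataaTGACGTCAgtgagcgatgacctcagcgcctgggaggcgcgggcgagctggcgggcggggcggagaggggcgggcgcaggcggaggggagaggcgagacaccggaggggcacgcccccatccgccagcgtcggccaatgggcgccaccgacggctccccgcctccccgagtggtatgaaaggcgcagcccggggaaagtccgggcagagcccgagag
Dusp1: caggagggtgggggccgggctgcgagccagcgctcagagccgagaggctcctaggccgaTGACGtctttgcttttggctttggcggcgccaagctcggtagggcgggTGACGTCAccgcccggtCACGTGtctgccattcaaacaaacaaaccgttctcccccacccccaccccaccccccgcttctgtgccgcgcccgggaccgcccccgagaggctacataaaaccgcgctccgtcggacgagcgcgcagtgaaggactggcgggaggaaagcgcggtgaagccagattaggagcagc
Hlf: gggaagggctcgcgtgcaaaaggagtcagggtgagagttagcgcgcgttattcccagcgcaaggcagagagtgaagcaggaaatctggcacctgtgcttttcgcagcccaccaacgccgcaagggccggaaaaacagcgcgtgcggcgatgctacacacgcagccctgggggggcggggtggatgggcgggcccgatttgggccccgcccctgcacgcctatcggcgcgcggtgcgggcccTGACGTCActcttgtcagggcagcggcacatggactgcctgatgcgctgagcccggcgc
In the Fos window the cores begin 129 and 66 bases before the start, and Nr4a1 has 4 cores at 233, 213, 69 and 40 bases before it. Btg2 has 1 full CRE at 166 bases, Dusp1 has 1 at 143 bases with a further core at 191 and an E-box at 126, and Hlf has 1 at 9 bases. The core was no mark of increased genes at large, since it occurred in 34.0% of 94 genes at least 2-fold higher (with signals below 50 set to 50) and 21.6% of 51 at least 2-fold lower. Of the 14 higher inducible factors with a window, 10 held it (71.4%). The AP-1 site TGANTCA occurred in 14.9% of the genes at least 2-fold higher, 5.88% of those lower, 5.99% of all genes measured and 7.81% of all windows. The E-box occurred in 19.1%, 13.7%, 12.6% and 7.15% of the same sets, and the CArG box in 2.13%, 1.96%, 1.76% and 1.63%. These matches are descriptions of letters in a window.

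Effectors that neuronal activity induces were as strongly raised, with 17 of 21 measured genes higher, 0 lower and a median log2 ratio of 1.39. The array held 27 of these genes, and the rest were below the filter. Arc, which acts at the synapse on AMPA receptor endocytosis, had 72.5 in sham and 1387.9 in ECS (4.37). Nptx2, a secreted pentraxin that clusters AMPA receptors, had 71.0 and 681.7 (3.37), whereas its relative Nptx1 had 3433.9 and 3080.5 (-0.05). Ptgs2, the inducible cyclooxygenase, had 282.3 and 2315.4 (3.14). For Arc, Nptx2 and Ptgs2, whose vehicle signals were 124.6, 82.8 and 509.4, the ECS pool stood far above both untreated pools. The 3 Gadd45 stress response genes were all higher, at 2.46 for Gadd45b, 2.00 for Gadd45g and 1.38 for Gadd45a, and so was Cdkn1a, the cell cycle inhibitor p21, at 1.64. Among kinases, Plk2 had 873.1 and 2367.4 (1.55), Sgk1 709.4 and 1729.3 (1.39) and Pim1 34.2 and 109.6 (1.79). Homer1, a synaptic scaffold gene with a short inducible form, could not be read well. Its probe sets past the filter were dim, at 34.7 and 31.7 (-0.02) and at 41.1 and 34.6 (-0.14), and a further one, at 0.6 in sham and 21.7 in ECS, was below the filter, with a mean signal of 16.2 over the arrays.

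Feedback regulators of the MAP kinase pathway split, with 5 of 12 higher and 2 lower. Dusp1, a nuclear phosphatase of MAP kinases, had 113.4 in sham and 897.2 in ECS (3.09 or 8.53-fold). Dusp6, the ERK phosphatase of the cytoplasm, had 274.3 and 667.0 (1.39). Dusp14, Spry2 and the EGF receptor inhibitor Errfi1 lay between 0.92 and 0.95, but the other probe set of Errfi1 gave 0.24. Dusp16 had 136.1 and 68.0 (-0.89, or -0.44 with vehicle in place of sham) and Spry1 153.0 and 92.0 (-0.63).

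Neuropeptide precursors and granins contributed many of the bright increases, with 9 of 20 higher and 1 lower. Grp, the precursor of gastrin-releasing peptide, had 373.8 in sham and 2748.3 in ECS (2.99), and vehicle gave 363.4, so that sham stood above vehicle by 0.54 after centring. Penk, the enkephalin precursor, had 389.1 and 2835.6 (2.97). Npy, neuropeptide Y, had 757.0 and 4977.7 (2.83), and Gal, the galanin precursor, 59.2 and 359.3 (2.71). All of these exceeded sham more than 6-fold, with Npy at 7.09-fold and Gal at 6.54-fold. Tac2, the neurokinin B precursor, had 30.7 and 139.3 (2.29, or 1.84 with signals below 50 set to 50), and Tac1 0.99. Granins, which pack peptides into dense core vesicles, were higher by less, at 0.99 for Scg2, 0.92 for Chga and 0.66 for Chgb. Pdyn, the dynorphin precursor of GCs, was the exception, with 127.3 and 66.5 (-0.83). For receptors, Npy2r, a receptor for neuropeptide Y, had 667.2 and 313.1 (-0.98), while Gpr83 had 67.0 and 261.7 (2.07) and the somatostatin receptor Sstr2 115.3 and 185.6 (0.80, or 0.57 against vehicle). Ramp3, a partner of the calcitonin-like receptor, had 93.0 and 21.4 (-2.01, or -1.15 with signals below 50 set to 50), and the orphan receptor Gpr12 197.3 and 67.3 (-1.44). Of the 17 G protein-coupled receptors and partners measured, 2 were higher (11.8%) and 3 lower (17.6%).

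Growth factors had no common direction, with a median of 0.06. Bdnf, the activity-induced neurotrophin, was the only one of 24 measured ligands and receptors that was higher, with 735.5 in sham and 2511.8 in ECS (1.88), and its other probe set gave 1.45. Lower were 5, led by Igf2, a growth factor of meninges and choroid plexus, with 133.2 and 52.3 (-1.24), and Tgfa, an EGF receptor ligand, with 367.5 and 166.8 (-1.03). Fgf9, Pdgfa and Fgfr2 lay between -0.66 and -0.61, although Fgf9 had only -0.23 with vehicle in place of sham. The binding proteins that hold insulin-like growth factors outside cells moved apart from each other, with 3 of 7 higher and 2 lower. Igfbp5 had 2143.3 in sham and 486.4 in ECS (-2.03 or 4.09-fold lower), and Igfbp4 189.1 and 97.9 (-0.84, or -0.52 against vehicle). Igfbp6 had 54.5 and 300.3 (2.57), Igfbp7 198.8 and 407.8 (1.15), and the related Igfbpl1, a gene of neuroblasts, 75.1 and 185.2 (1.41).

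In activin and TGF-β signalling, 8 of 26 genes were higher and 2 lower. Inhba, which encodes the activin A subunit, had 78.8 in sham and 311.0 in ECS (2.09), while its ratio of sham over vehicle was -0.60. Its receptors did not share a direction, since Acvr1c had 33.3 and 112.1 (1.86) and Acvr1 524.7 and 820.9 (0.75), whereas Acvr2a had 743.0 and 444.8 (-0.63). Of the TGF-β receptors, Tgfbr2 was higher (0.75) and Tgfbr1 lower (-0.86). Smad7, an inhibitor that the pathway itself induces, had 130.2 and 202.6 (0.75), and the ligand Tgfb3 30.7 and 70.3 (1.30). With signals below 50 set to 50, Tgfb3 had 0.86 and Acvr1c 1.53. Among secreted Wnt modulators, Frzb, which binds Wnt ligands, had 410.9 and 116.0 (-1.72), and Ccn4, a matricellular protein, 16.7 and 54.3 (1.81). Of 16 genes of this kind, 3 were higher and 1 lower, but with signals below 50 set to 50, Ccn4 had 0.48 and 1 gene was higher.

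Among 29 axon guidance genes, 5 were higher and 2 lower. Sema3e, a secreted semaphorin, had 306.6 and 840.5 (1.56), and Sema3a, a repellent of growing axons, 24.2 and 103.6 (2.21, or 1.42 with signals below 50 set to 50). The Eph receptor Ephb6, which lacks kinase activity, had 70.1 and 310.6 (2.26), while the ligand Efnb2 had 210.8 and 95.4 (-1.04). Sham stood above vehicle by 0.49 for Efnb2, and with vehicle in place of sham its ratio was -0.54.

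The largest decreases did not form 1 family. Ogn, a small proteoglycan of meningeal and other connective tissue cells, had 226.6 in sham and 20.8 in ECS (-3.34), and -2.44 with signals below 50 set to 50. Tdo2, a tryptophan-degrading enzyme of mature GCs, had 563.8 and 107.9 (-2.28 or 4.85-fold lower). Rasal1, a GTPase-activating protein of Ras, had 136.2 and 27.5 (-2.20, or -1.70 with signals below 50 set to 50). The ECS pool was below both untreated pools for all 3, whose vehicle signals were 230.1, 719.8 and 134.6. Fam184b followed at -2.10 and Zfp503, a zinc finger repressor, at -1.84. Hlf, a transcription factor of clock output, had 1234.5 and 392.3 (-1.55), and Csf1, the growth factor of microglia and macrophages, 285.3 and 99.1 (-1.42). Lcorl (-1.60), the transporter Abca8a (-1.55), the globin Cygb (-1.52), the chondroitin sulfate enzyme Csgalnact1 (-1.49), the kinase Pnck (-1.43) and the protease Capn3 (-1.39) were also among the 20 lowest genes. For Plcg2 (-1.41) and Zfp777 (-1.38), sham was above vehicle by 1.03 and 1.01, and with vehicle in place of sham their ratios were -0.38 and -0.37. The local spread of sham over vehicle, the scaled median absolute deviation over the 500 probe sets nearest in signal, was 0.12 to 0.26 for the 20 largest increases and 0.14 to 0.33 for the 20 largest decreases.

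**Figure D3:**
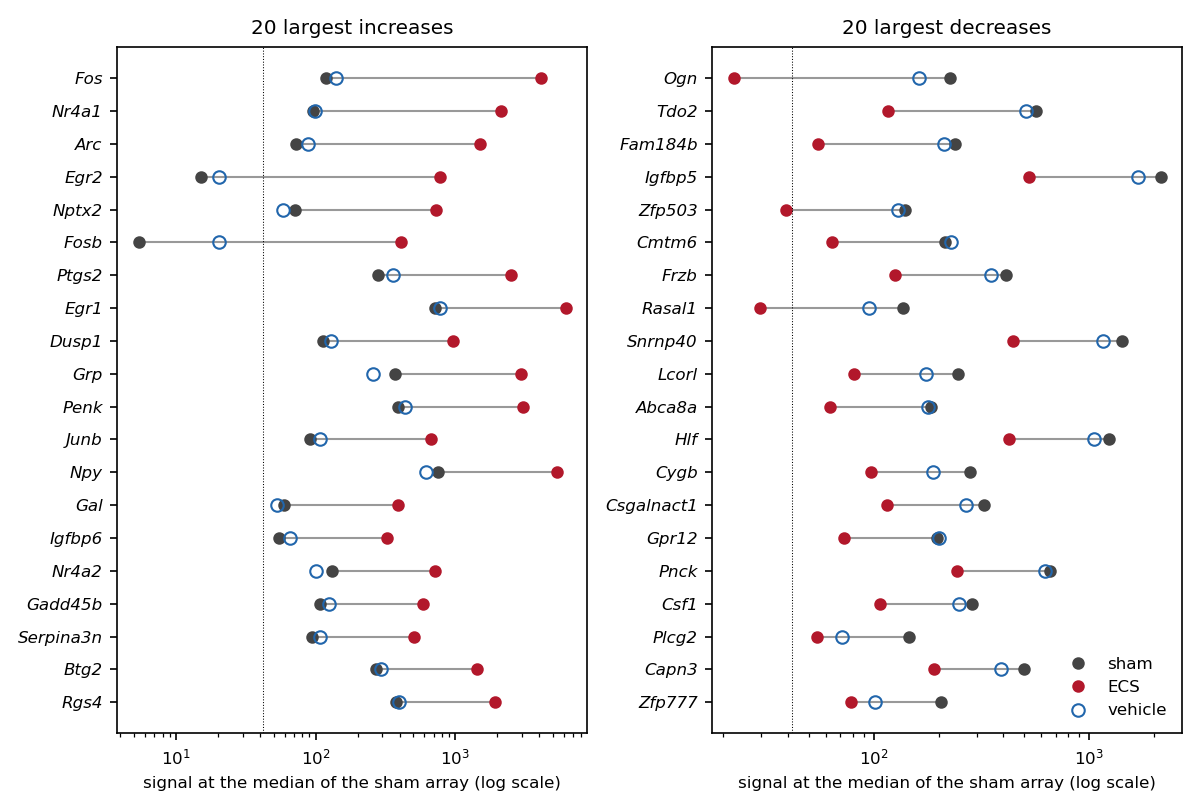
Signals of the 20 genes with the largest increase and the 20 with the largest decrease, ranked with signals below 50 set to 50, on the sham (grey), ECS (red) and vehicle (open blue) arrays, each shifted to the median of the sham array on a log axis; the dotted line is the signal of 50 after that shift. Sham and vehicle lie close together for most genes, for example Fos and Tdo2, but apart for Fosb among the increases and for Plcg2 and Zfp777 among the decreases.

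Among the bright genes, those with a mean signal of at least 1000, Tmsb10, a thymosin that binds actin monomers, had 2103.7 in sham and 6074.9 in ECS (1.64), although its 4 probe sets ranged from 0.35 to 2.09. Rprm, a p53-induced inhibitor of the cell cycle, had 431.7 and 1441.9 (1.85). Among bright decreases, Cxcl12, the chemokine that guides newborn GCs, had 1237.9 and 557.2 (-1.04), and Snrnp40, a splicing protein, 1412.4 and 411.4 (-1.67). The other probe set of Snrnp40 gave 0.10, so that its decrease rests on 1 probe set. The bright gene Erdr1 was lower by -0.76 against sham, but sham stood 0.68 above vehicle, and against vehicle it had -0.08. The other bright decreases were Snhg8 (-0.87), Cyth1 (-0.73), Lrrc58 (-0.72, or -0.57 against vehicle), Phyhipl (-0.71, with 0.34 at its other probe set) and Sowaha (-0.71).

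Mature and immature GC genes took opposite sides. All 4 markers of GC maturity used in the study lay below sham, 3 of them beyond 1.5-fold, with a median of -0.97. Calb1 had 3813.5 in sham and 1398.6 in ECS (-1.34 or 2.53-fold lower), and its probe sets gave -1.70 and -1.34. Dsp, desmoplakin, had 1416.9 and 866.8 (-0.60), and Il1r1, the interleukin-1 receptor, had 170.9 and 107.4 (-0.56), which is inside 1.5-fold. The study chose these markers and results for them were known, so their direction is not independent evidence. Genes of GC identity, by contrast, had a median of -0.08, with 0 of 12 higher and 2 lower. Prox1, the transcription factor that defines the GC fate, had 112.4 and 98.3 (-0.08), Bcl11b 1526.1 and 1361.8 (-0.06), Mef2c 1605.6 and 1590.0 (0.09) and Neurod2 692.0 and 698.6 (0.12). The 2 lower genes were Il16, a cytokine precursor, at -1.04 and the cation channel Trpc6, which had 347.4 and 166.1 (-0.96).

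Of 19 genes of immature GCs and neuroblasts, 10 were higher and 0 lower, with a median of 0.64. With the signals as deposited 6 were higher and 0 lower, with a median of 0.53, and against vehicle 9 were higher and 0 lower. Dcx, a microtubule protein of migrating neurons, had 110.3 in sham and 195.0 in ECS (0.93). Calb2 had 293.7 and 529.9 (0.96), with sham above vehicle by 0.56. Sox11, a transcription factor of young neurons, had 405.3 and 615.2 (0.71), and Dpysl3, a growth cone protein, 234.7 and 391.0 (0.84). The stages before the neuroblast did not share this direction. Of 12 radial glia and progenitor genes, 1 was higher, the filament gene Vim (0.89), and 2 were lower, Hes5 (-0.69) and Pax6 (-0.64), while Sox2 had 749.8 and 580.6 (-0.26). Hes5 and Pax6 had signals under 100 and were inside 1.5-fold with vehicle in place of sham, at -0.31 and -0.44. Of 17 cell cycle genes, 2 were higher and 2 lower (11.8% each), with a median of 0.05, and 3 passed 1.5-fold between sham and vehicle. Each of these calls was lost under another setting. Mcm4 had 0.13 against vehicle, and Rrm1 had -0.35 as the mean of its probe sets. With signals below 50 set to 50, Rrm2 had 0.52 and Ccne2 -0.39.

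Among intracellular signalling genes, both directions occurred. Of 32 genes of calcium release and calmodulin-dependent signalling, 4 were lower (12.5%, beside 4.18% of all genes) and 0 higher, with a median of -0.02. Pnck, a calmodulin-dependent kinase, had 660.4 in sham and 226.9 in ECS (-1.43). Camkk2, the kinase that activates other calmodulin-dependent kinases, had 932.7 and 458.4 (-0.92). Hpcal1, a neuronal calcium sensor, had 878.8 and 433.8 (-0.91), and the calcium release channel Ryr1 105.5 and 54.1 (-0.85). In cyclic nucleotide signalling, 2 of 25 were higher and 3 lower. Nos1, the neuronal nitric oxide synthase, had 275.4 and 100.4 (-1.35), and the protein kinase A inhibitor Pkib 159.9 and 81.5 (-0.86), while the phosphodiesterase Pde4b (0.80) and the protein kinase A subunit Prkar1b (0.83) were higher. Among 19 phosphoinositide genes, Pip5k1b, which makes the lipid PIP2, was lower with 390.2 and 151.1 (-1.26) and by -1.37 to -1.05 over its 3 probe sets. Pik3r1, the regulatory subunit of PI 3-kinase, had 221.9 and 418.0 (1.02), and its 3 probe sets ranged from 0.37 to 1.05. Of the phosphoinositide genes, 2 were higher and 2 lower (10.5% each).

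Regulators of G protein and Ras signalling were changed in both directions, 4 higher and 3 lower of 30. Rgs4, which speeds the shut-off of Gq and Gi signals, had 374.2 in sham and 1801.0 in ECS (2.38), and its 3 probe sets lay between 2.38 and 2.66. Rgs2 had 502.8 and 1057.9 (1.18), whereas Rgs14, a signalling scaffold, had 560.3 and 320.3 (-0.70). The small GTPase Rasl11b had 271.6 and 887.3 (1.82).

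Of 30 potassium channel genes, 5 were higher (16.7%, beside 5.34% of all genes) and 1 lower. Kcnj10, the inward rectifier of astrocytes, had 242.3 in sham and 532.0 in ECS (1.24), and its ratio of sham over vehicle was -0.58. The other 4, Kcne1l (1.66), Kcnip3 (1.19), Kcnj6 (1.10) and Kcnip1 (0.71), had signals of 80.9 or less in sham, and the leak channel Kcnk2 was lower (-0.63). Kcnj6 had 0.54 with signals below 50 set to 50, and Kcnip1 0.45 with vehicle in place of sham. Among 21 sodium, calcium, HCN and TRP channel genes, the calcium channel subunit Cacna2d2 had 83.5 and 243.8 (1.65), and 3 of the list were higher and 1 lower. Of 12 genes of GABA synthesis, transport and receptors, Gabrd, the δ subunit of extrasynaptic GABA-A receptors in GCs, had 319.9 and 129.3 (-1.20) and Gabrg1 138.8 and 75.3 (-0.77), while the GABA-synthesizing enzyme Gad2 had 327.0 and 542.6 (0.84) and Gad1 3711.6 and 3750.5 (0.12). Of 19 glutamate receptor and scaffold genes, only Homer2 was lower (-1.02) and only the dim Grm8 higher (0.67, or 0.46 with signals below 50 set to 50). Each is 5.26% of that list, beside 4.18% and 5.34% of all genes.

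The clock and its output were changed at particular genes, with 2 of 18 higher, 4 lower and a median of -0.21. Per1, an inducible component of the negative limb, had 188.2 in sham and 424.2 in ECS (1.28), whereas Per2 had 149.3 and 146.6 (0.08) and Per3 237.1 and 145.4 (-0.60). Cry1, a repressor, had 149.7 and 70.3 (-0.98). Hlf and Tef, factors that activate genes through the D-box, were lower, Tef with 1931.3 and 1105.0 (-0.70), and Nfil3, which represses through the same element, was higher with 123.9 and 404.7 (1.82). The third D-box activator, Dbp, had 613.1 and 496.3 (-0.20). Per3 and Tef were inside 1.5-fold with vehicle in place of sham, at -0.29 and -0.39, and Tef also as the mean of its probe sets, at -0.54.

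Of 18 glucocorticoid receptor and target genes, 5 were higher and 1 lower. The lower gene was the receptor itself, Nr3c1, with 701.0 in sham and 365.6 in ECS (-0.83). The higher genes were Dusp1, Cdkn1a, Sgk1, Per1 and Errfi1, all of which are also induced by neuronal activity and were listed elsewhere too. The targets Fkbp5 (0.42), Tsc22d3 (0.33) and Klf9 (0.15) were inside 1.5-fold.

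Cholesterol synthesis and uptake genes were raised together by small amounts, with 12 of 20 higher, 0 lower and a median of 0.69. Sqle, squalene epoxidase, had 322.9 in sham and 618.3 in ECS (1.05). Fdft1, squalene synthase, had 659.3 and 1236.7 (1.02), and Cyp51, a sterol demethylase, 221.9 and 410.7 (1.00). The highest ratio of the list was that of Sqle, and the median of the list between sham and vehicle was 0.02. In protein folding, Hsph1, a cytosolic heat shock protein, had 1747.8 and 3349.1 (1.05), and 3 of 25 genes of its kind were higher and 1 lower. Of 22 endoplasmic reticulum chaperone genes, 3 were higher with a median of 0.31, and here sham exceeded vehicle by a median of 0.23. With vehicle in place of sham, 9 of the 22 were higher.

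Summed markers of other cell types moved little, except those of pyramidal cells, and single astrocyte and connective tissue genes moved further than their groups. The summed defining markers changed by 0.24 log2 units for astrocytes, -0.08 for microglia, 0.12 for oligodendrocytes, 0.24 for endothelial cells, 0.23 for interneurons and 0.62 for pyramidal cells of CA1 and CA3, beside -1.01 for GCs and 0.89 for immature GCs. The GC sum held the maturity markers Calb1, Dsp and Tdo2 of the study, with Calb1 at 3813.5 of 7176 in sham. The other GC markers, Prox1 and Lct, had -0.08 and -0.48. Gfap, the astrocyte filament protein, had 127.4 in sham and 601.5 in ECS (2.35), and its other probe set gave 2.30. Serpina3n, a secreted protease inhibitor of reactive astrocytes, had 94.3 and 473.7 (2.44). The other defining astrocyte markers were Aqp4 at 0.45, Aldh1l1 at 0.12 and Gja1 at -0.09, all inside 1.5-fold. Of 8 reactive astrocyte genes 4 were higher and 1 lower, or 3 and 0 with signals below 50 set to 50, and of 14 general astrocyte genes 2 were higher, Gfap being on both lists. The difference between the lists was not tested. Of 16 microglia and complement genes, Cd68, a lysosomal protein of activated microglia, was higher with 70.8 and 116.9 (0.83), while P2ry12 (-0.49) and Cx3cr1 (-0.40) were inside 1.5-fold. None of 14 myelin genes passed 1.5-fold, with values from -0.46 to 0.45. The summed pyramidal markers rested on Bok (0.94), since Wfs1 had -0.28 and Iyd 0.33. Among 8 pyramidal genes 1 was higher and 3 lower, namely Crym (-0.87), Lypd1 (-0.80) and Pou3f1 (-1.12). Lypd1 had -0.25 against vehicle, and Pou3f1 -0.10 with signals below 50 set to 50. Of 12 interneuron genes, 3 were higher and 1, Nos1, lower, and of 17 endothelial and pericyte genes 1 was higher (5.88%), the VEGF receptor Kdr (0.66).

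Matrix genes were changed in both directions, with 8 of 37 higher and 3 lower. The array held 66 of them, and the rest were below the filter. Col6a1, Col5a2 and Col3a1 had sham and vehicle signals under 50 and passed the filter through the ECS and fluoxetine arrays. The collagens Col6a1, from 26.0 in sham to 142.5 in ECS (2.56), Col5a2 (2.04), Col3a1 (1.78) and Col1a2 (1.13) were higher, and so was Sparc, a collagen-binding glycoprotein, with 900.8 and 1609.3 (0.95). With signals below 50 set to 50, Col6a1 had 1.88 and Col5a2 0.87. The laminin subunit Lamb1 was lower with 232.3 and 96.5 (-1.16), but its other probe set gave -0.13. Fibrillar collagens and Ogn are all genes of meningeal cells, yet they took opposite directions. The defining meningeal markers Ogn, Dcn, Lum and Col1a2 had -3.34, 0.33, -0.34 and 1.13, while Col1a1 and Slc6a13 were below the filter. Summed over all 6 of these markers, signals were 578.3 in sham and, at the sham median, 486.8 in ECS. Of 9 choroid plexus and meningeal genes, 2 were higher and 3 lower. The part of adhering tissue in these ratios was not tested. Of 27 interferon, chemokine and MHC class I genes on the array, 14 passed the filter, and of these 6 were higher and 1 lower. The higher ones were led by Ifit3, an interferon-induced gene, with 37.8 and 88.0 (1.33). They included H2-K1, an MHC class I chain, with 245.7 and 369.2 (0.70). H2-K1 had 0.31 as the mean of its probe sets and 0.49 against vehicle, both inside 1.5-fold. Gbp2, Gbp3 and Bst2 had sham signals under 50; with signals below 50 set to 50, 4 of the 14 were higher, Gbp2 being at 0.58 and Gbp3 at 0.13, and against vehicle Bst2 had 0.46.

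Few genes of energy supply, translation and vesicle release passed 1.5-fold. Of 76 respiratory chain genes, 31 synaptic vesicle genes and 49 listed splicing and hnRNP genes, 0 passed 1.5-fold in either direction, and their medians were 0.09, 0.09 and -0.10. With vehicle in place of sham, 4 of the vesicle genes were higher and 3 of the splicing genes lower, and 0 of the respiratory chain genes passed. The splicing list did not hold Snrnp40, which was lower by 1 of its probe sets. Of 45 cytosolic ribosomal protein genes 1 was lower, Rpl22 (-0.64), and of 74 mitochondrial ones 1, Mrpl49 (-0.66). Rpl22 had -0.53 and Mrpl49 -0.32 as the mean of their probe sets, and Mrpl49 -0.13 against vehicle, so that these calls rest on the probe set or the control taken. Of 35 proteasome subunits 1 was higher, Psmb7 (0.61, or 0.24 against vehicle), and of 38 cadherins and synaptic adhesion genes 1, the activity-induced protocadherin Pcdh8, with 1960.7 and 3203.1 (0.82). Against vehicle, 5 of the 38 adhesion genes were higher. Of 17 housekeeping and general neuronal genes, the neurofilament Nefl (0.86) and the tubulin Tubb3 (0.73) were higher. Of 65 chromatin modifiers 4 were lower (6.15%) and 0 higher, among them the histone demethylases Kdm4c (-0.88) and Kdm6a (-0.64, or -0.52 as the mean of its probe sets). Setd4 was lower by -0.92, but sham stood 1.21 above vehicle, and against vehicle the ratio was 0.29. Over all genes, 5.34% were higher and 4.18% lower. Of 128 Zfp zinc finger genes, 2 were higher (1.56%) and 9 lower (7.03%), and of 137 solute carriers 9 (6.57%) and 8 (5.84%). Among the latter, Slc7a4, an amino acid transporter relative, had 378.4 in sham and 756.2 in ECS (1.11), and Slc15a2, a peptide transporter, 400.5 and 182.7 (-1.02). Sham stood 0.50 above vehicle for Slc15a2, whose ratio against vehicle was -0.52 and whose other probe set gave -0.39.

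**Figure D4:**
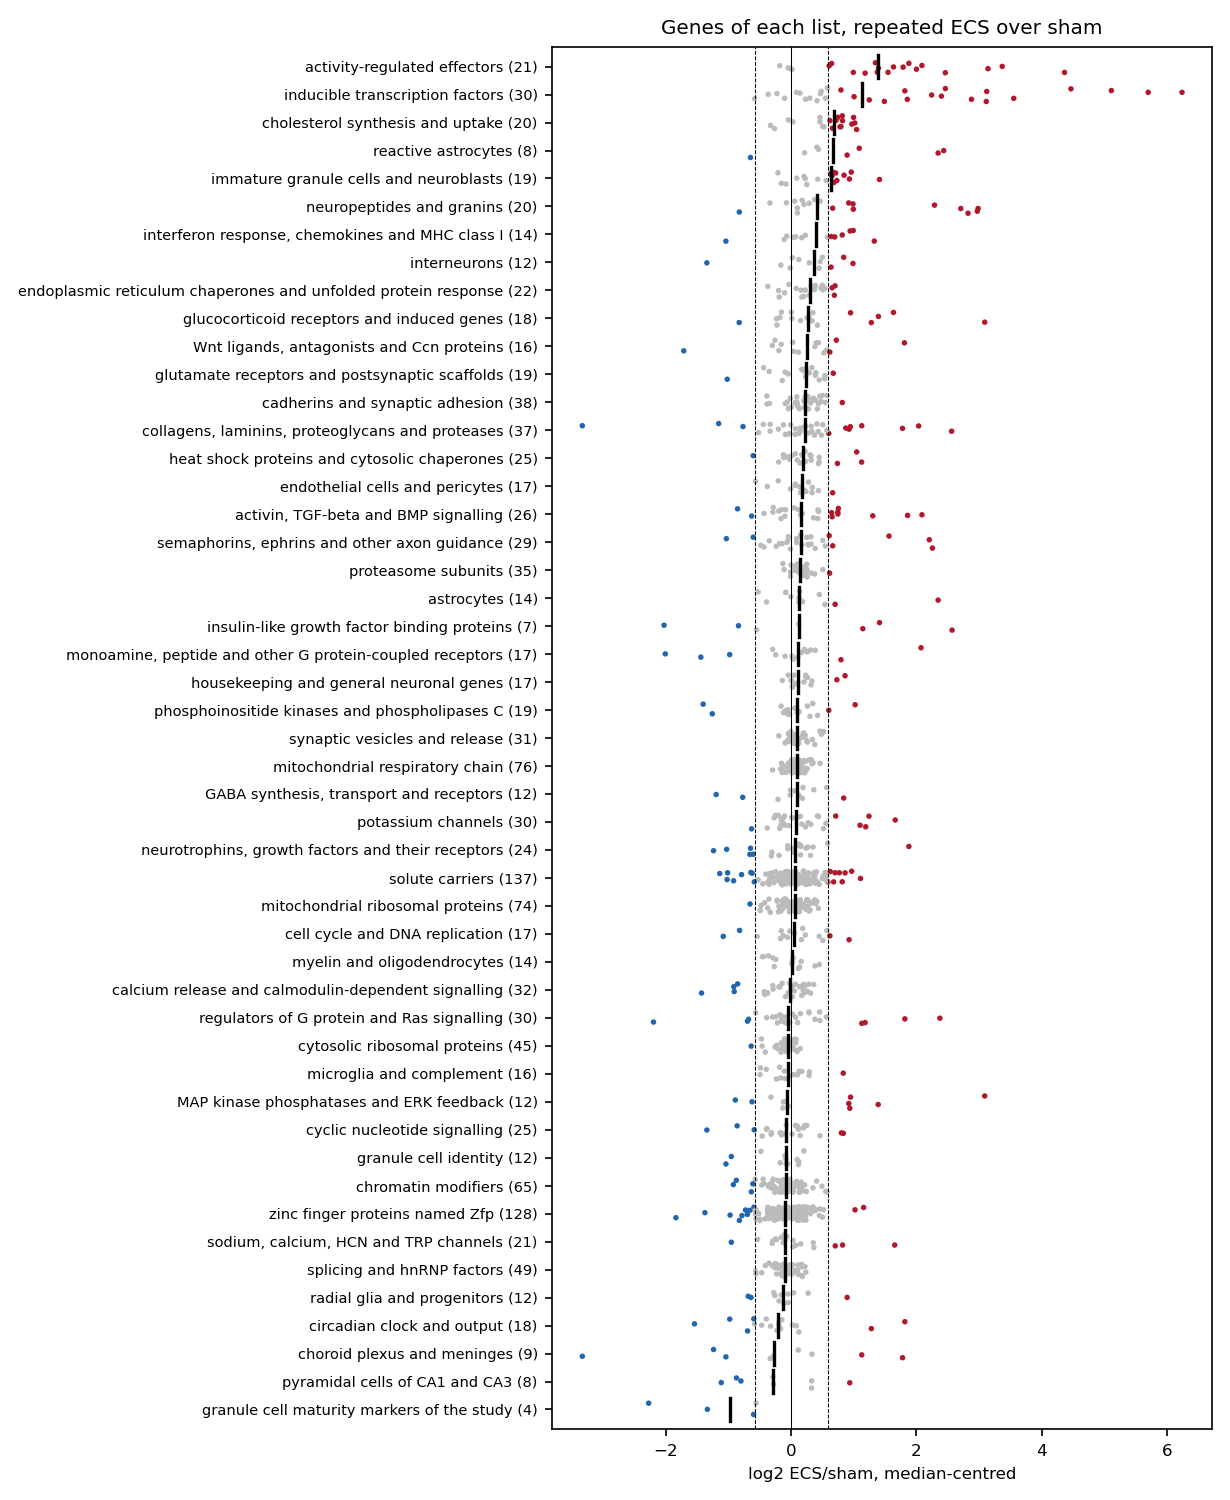
Each point is a gene of the list named at the left, with the number measured in brackets, and its centred log2 ratio of ECS to sham; red and blue points passed 1.5-fold (dashed lines), black bars are list medians, and the vertical scatter within a list is for legibility. Lists are ordered by median, from activity-regulated effectors at 1.39 to GC maturity markers at -0.97.

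Where a gene had several probe sets, they gave a check on the probes, although not on the animals. Of 2978 such genes, all probe sets were higher in 70, all lower in 33, and some in 1 direction in 370. In 5 genes, Abcc5, Gpaa1, Lasp1, Mark1 and Ppfia4, probe sets passed 1.5-fold in both directions. Of the 68 genes whose brightest probe set was at least 2-fold, the second lay on the same side in 65 and passed 1.5-fold there in 49. The pair differed by a median of 0.17 log2 units over the 2978 genes. Increases shared by all probe sets were led by Egr2 (5.17 to 5.70), Ptgs2 (2.39 to 3.14), Rgs4 (2.38 to 2.66) and Nptx2 (2.36 to 3.37), and decreases by Ogn (-3.76 to -3.34), Frzb (-2.09 to -1.72), Hlf (-1.55 to -1.5) and Csgalnact1 (-1.56 to -1.49). Cd1d1 (1.70 to 3.73) was also higher, and D16Ertd472e (-1.35 to -1.17), Spon1 (-1.09 to -1.06) and Parm1 (-1.49 to -0.96) lower, at every probe set. For Tdo2, both were lower, at -2.28 and -0.90. For Cmtm6, at -1.74, the other probe set gave -0.21. The remaining 4957 genes had 1 probe set past the filter, among them Fos, Arc, Nr4a1, Grp, Npy, Penk and Igfbp5.

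**Figure D5:**
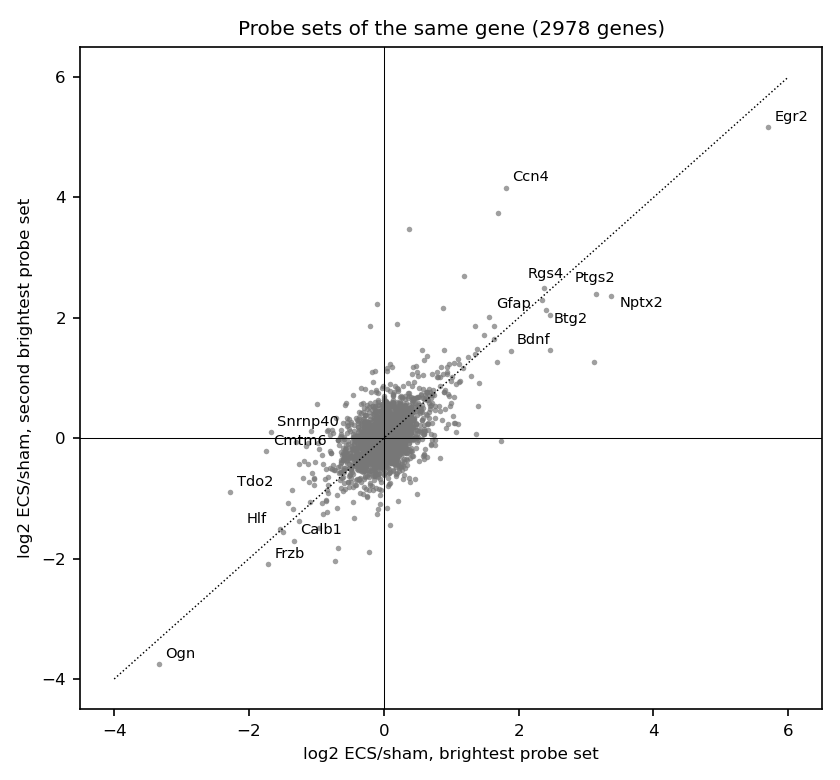
Each point is 1 of 2978 genes, with the centred log2 ratio of ECS to sham of its brightest probe set on the horizontal axis and of its second brightest on the vertical axis; the dotted line marks equal values. Egr2, Rgs4, Hlf and Ogn lie near the line, while Snrnp40 and Cmtm6 are low by their brightest probe set only.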

How the data were processed

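DG RNA of each group was pooled, 100 ng was amplified with a 3′ kit and hybridized to an Affymetrix mouse genome 430A 2.0 array, 1 array per group. The deposited values are intensity signals on a linear scale, which the authors computed with MAS5, an algorithm that joins the probes of a probe set. Probe sets averaging below 50, and 64 controls, were left out, each array was centred on its median log2 signal, and log2 ratios were taken with Python 3.11.15, numpy 2.4.6 and pandas 2.3.3 (a signal of 0 counts as 0.1). Of 13422 probe sets, 12431 carry 1 gene in the platform annotation, 426 several and 565 none; only the first were named, with the brightest probe set per gene. Precision is limited by 1 array per group.

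Members and lists were chosen with earlier results of these data known. The rule for named genes takes the 20 highest and 20 lowest genes with signals below 50 set to 50, the 10 highest and 10 lowest with a mean signal of at least 1000, the 10 per direction whose probe sets all moved furthest, up to 6 members of each of 49 lists, and the cell type markers, 222 genes in all; members of lists and markers that are not named are held in their counts. Named after their values were seen were Jun, Srf, Egr3, Bhlhe40, Nptx1, Gadd45a, Plk2, Pim1, Homer1, Spry1, Pdyn, Chga, Chgb, Tgfbr2, Acvr2a, Bcl11b, Mef2c, Neurod2, Sox2, Per2, Dbp, Fkbp5, Tsc22d3, Klf9, Sparc and the 5 genes with discordant probe sets. Promoter windows are those of RefSeq for GRCm38.p6. The steps were tested on simulated data. Alternatives covered the scaling, filter, floor, pseudocount, fold, probe set rule and control array.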

Additional observations from a re-analysis of the deposited data

How the results depend on the processing

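No paired analysis was possible because each group has 1 array, and for the same reason no replicate could be left out. With the signals as deposited, 874 probe sets and 513 genes were lower, against 559 and 332 after centring, since the ECS array was dimmer; 512 probe sets and 305 genes were higher. Without a signal filter, 3320 probe sets were higher and 2922 lower, and 1738 and 1435 genes. With a mean signal of at least 200, these were 287 and 223 probe sets, and 189 and 151 genes. At 1.2-fold they were 2527 and 2198 probe sets, and 1481 and 1278 genes, and at 2-fold 231 and 128, and 138 and 83. Both directions stayed within 1.5 times the main counts under quantile normalization (401 and 369 genes) and lowess on the signal (416 and 341 genes). With vehicle in place of sham, 571 genes were higher and 368 lower, of which 304 and 210 were the same genes as against sham, and Setd4 reversed to 0.29. Of 198 named genes past 1.5-fold, 165 were past it in the same direction against vehicle. Under quantile normalization and under lowess, 0 of these 198 genes reversed. Leaving out the centring shifts every ratio by the same small amount, so that setting could not reverse any of them.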
